A study of Mus musculus with 2 samples.

Results

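The genes described here encode SLIT ligands, ROBO receptors, semaphorins and 1 netrin receptor, and they are followed through 2 lists of open chromatin peaks from mouse fat progenitors. There are 10 of them, Slit2, Slit3, Robo1, Robo2, Unc5c, Sema3a, Sema3c, Sema3d, Sema3e and Sema5a, out of 21887 protein-coding genes. A listed peak was given to a gene when its centre lay in the gene's mm10 span or within 50 kb of it. By this rule 64 of 22485 listed peaks belonged to the 10 genes, 49 from the CD137 list and 15 from the PDGFRα list, and no peak fell to more than 1 of them. The genes were chosen by these same listed peaks, so peak numbers and list shares below are a description and carry no test.

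Chromatin accessibility was measured by ATAC-seq, in which a transposase cuts DNA that is not packed by nucleosomes, with 1 library for each of 2 groups of C57BL/6 adipose progenitors. The first group, labelled CD137+ DEX, held cells sorted by MACS for CD137, a receptor of the tumour necrosis factor family used to mark beige fat precursors. The second, labelled CD140+/PDGFRa+ DEX, held cells sorted for PDGFRα, a growth factor receptor of stromal precursors. Both groups were grown, given a cocktail that induces fat cell formation and then treated with dexamethasone, a synthetic glucocorticoid, at 1 µM, so neither is an untreated control. The labels give the source as SAT or VAT without saying which group came from which, and the number and age of the animals are not given. The protocol for extraction mentions embryonic cells and a zona pellucida, which adipose tissue does not have.

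Each library is represented by a list of peaks that its authors named unique, giving for each peak its position, the Ensembl ID of a gene and a class of place (intron, exon, intergenic, up5k or down5k). The CD137 list holds 14483 peaks and the PDGFRα list 8002. No peak height or read number is listed, so depth is unknown, and a locus with no listed peak can be open in both groups or closed in both. The sort markers themselves gave little: within 50 kb Tnfrsf9, which encodes CD137, had 1 peak in each list, and Pdgfra had 1 CD137 peak and 0 PDGFRα peaks. These lists therefore do not check the sort. Marker genes of cell types were counted with the same windows, in which 7645 of all 21887 protein-coding genes had no peak of either list. At 10 of 10 fat progenitor markers 29 CD137 and 8 PDGFRα peaks were counted, and at 5 of 5 adipocyte markers 3 and 3. Many of the progenitor peaks lay at the long genes Pparg (5 and 1), Ebf2 (7 and 1) and Zfp423 (6 and 2). Among cell types that also use guidance genes, neuronal markers had 7 and 5 peaks at 3 of 4 genes (Tubb3 had 0 in either list), Schwann cell markers 5 and 2 at 4 of 4, and endothelial markers 4 and 6 at 4 of 5. Mesothelial markers had 2 and 7 at 4 of 4, 5 of them PDGFRα peaks at Wt1, and immune markers 4 and 2 at 4 of 4. The part of such cells in the values below was not tested.

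SLIT proteins are secreted and bind ROBO receptors on the surface of growing axons and other moving cells, which usually turn away from them. Class 3 semaphorins are secreted too, and most act through neuropilins and plexins. SEMA5A stays in the membrane, and UNC5C is a receptor that turns cells away from netrin. The same genes act outside the nervous system, in vessel growth and in fat, where a fragment of SLIT2 is known as a signal released by beige fat cells and SEMA3E is known for drawing macrophages into visceral fat in obesity.

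All 10 genes had at least 1 CD137 peak, as had 49.5% of all protein-coding genes, and 7 had at least 1 PDGFRα peak, as had 40.4% of all. CD137 peaks outnumbered PDGFRα peaks at 9 genes (34.1% of all genes), and PDGFRα peaks outnumbered CD137 peaks at 1, Sema3c (20.6% of all). Robo1, Sema3d and Sema3e had CD137 peaks and no PDGFRα peak (24.7% of all genes), and 0 genes had the opposite (15.6%). Slit2, Slit3, Robo1, Robo2 and Sema5a had at least 3 more CD137 than PDGFRα peaks (4.81% of all genes), and 0 had at least 3 more PDGFRα peaks (1.32%). Because the choice of genes used these counts, nothing is read from them against the background.

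**Figure D1:**
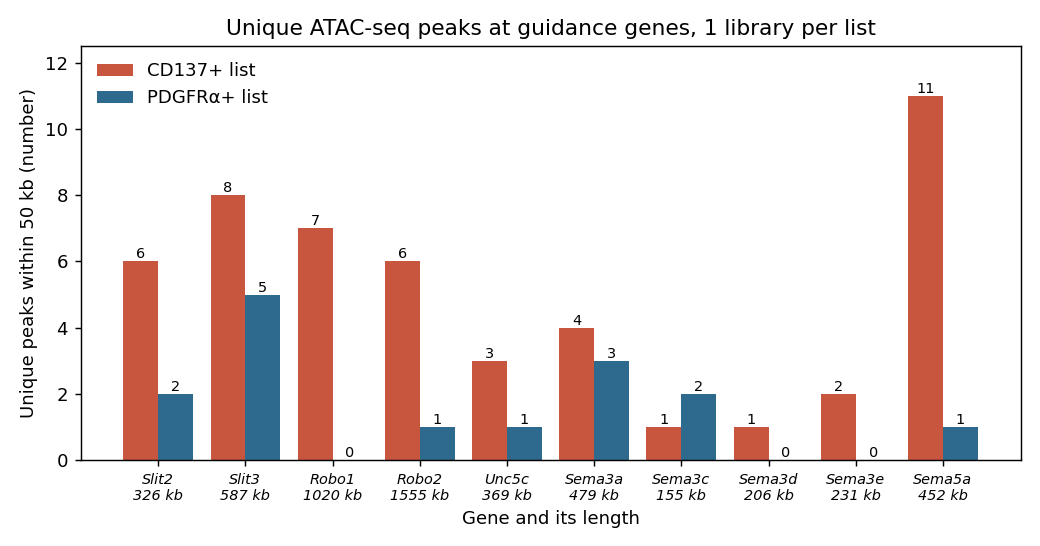
Number of unique peaks within 50 kb (vertical axis) of each guidance gene, with gene length in kb under its name, for the CD137+ list and the PDGFRα+ list. Each bar is 1 count from 1 library, so there is no error bar. Sema5a has 11 CD137 peaks and 1 PDGFRα peak, Robo1 has 7 and 0, and Sema3c is the one gene with more PDGFRα peaks, 2 against 1.

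The genes are long, and long genes collect more peaks of both lists. Their lengths ran from 155 kb for Sema3c to 1555 kb for Robo2, with a median of 410 kb, against 17.2 kb over all protein-coding genes. The share of protein-coding genes with at least 3 more CD137 peaks was 1.82% below 20 kb, 16.0% from 100 to 300 kb, 32.3% from 300 to 600 kb and 52.6% above 600 kb. Set against such lengths, the background for these 10 genes is far above the 4.81% of all genes. For at least 1 CD137 peak the shares were 79.38%, 88.89% and 96.05% from 100 to 300 kb, from 300 to 600 kb and above 600 kb. For at least 1 PDGFRα peak they were 62.23%, 71.36% and 73.68%, also above the shares of all genes.

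Counted per length, the median guidance gene lay close to other long genes. Because the same peaks chose the genes, their densities are a description. The median was 1.01 peaks per 100 kb of span plus windows, beside 1.10 for genes of 100 to 300 kb, 0.931 for those of 300 to 600 kb and 0.661 for longer ones. Sema5a (2.18), Slit3 (1.89) and Slit2 (1.88) were the densest, above the upper quartile of their band, 1.44. Of the genes in that band 4.44%, 9.88% and 10.4% were as dense as these or denser. Robo2 (0.423), Sema3d (0.327) and Sema3e (0.604) were sparse, each below the median of its band. Robo1 (0.625) and Unc5c (0.852) were also below the medians of their bands, by less.

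**Figure D2:**
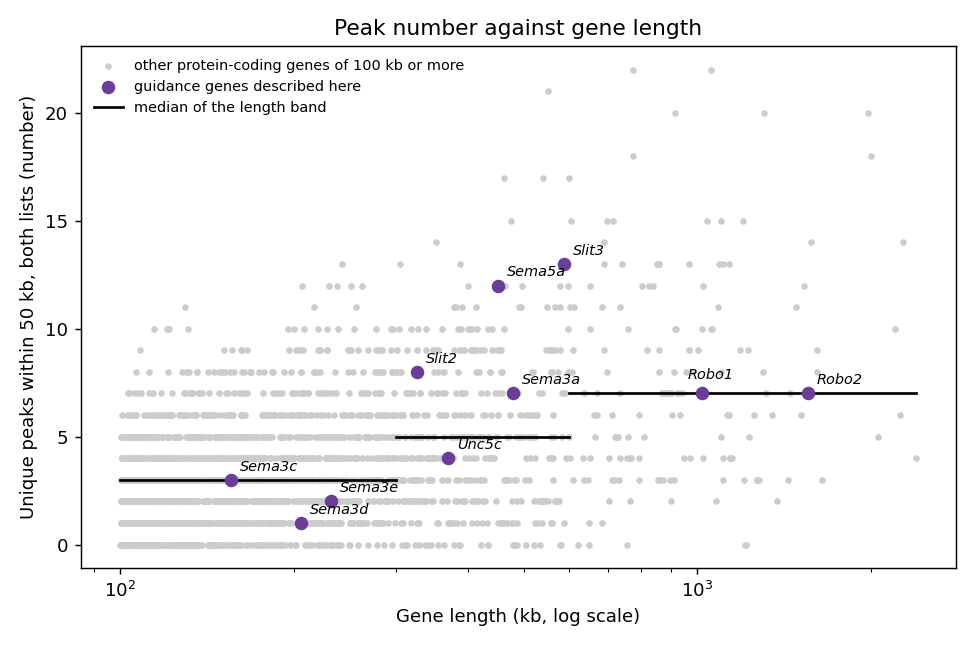
Peaks within 50 kb from both lists together (vertical axis) against gene length in kb on a log scale, for the 10 guidance genes (large points) and all other protein-coding genes of 100 kb or more (small points); black lines are the medians of the length bands, 3, 5 and 7 peaks. Slit3 and Sema5a stand well above the line for 300 to 600 kb, Robo1 and Robo2 lie on the line for genes over 600 kb, and Sema3d and Sema3e lie below theirs.

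Slit2 and Slit3, the secreted ligands, together had 14 CD137 and 7 PDGFRα peaks. Each also holds a copy of the miR-218 hairpin gene on its own strand, a known feature of the SLIT genes. The mature sequences, from RefSeq (GRCm38.p6), are shown to set out what the hairpins in the host genes share and where they differ. The capitals mark the seed, bases 2 to 8, by which a miRNA pairs with its targets.
mmu-miR-218-5p: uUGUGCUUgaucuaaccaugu
mmu-miR-218-1-3p: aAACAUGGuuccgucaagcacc
mmu-miR-218-2-3p: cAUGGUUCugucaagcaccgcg
The 5p sequence is the same from both hairpins, whereas the 3p sequences differ in their seeds. No listed peak lay at a hairpin. Mir218-1 in Slit2 (chr5:48223942-48224051) lay 86.5 kb from the nearest peak, a CD137 peak, and Mir218-2 in Slit3 (chr11:35616816-35616925) lay nearest to a PDGFRα peak, 50.1 kb from its 5p sequence.

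Slit3 (chromosome 11, 35121456 to 35708507, 587 kb) had the most peaks of the 10 genes, 8 from the CD137 list and 5 from the PDGFRα list. Inside the gene the lists followed each other, an order that was singled out after the values were seen. The first 6 peaks from the 5′ end were CD137 peaks, and the next 4 were PDGFRα peaks. The CD137 peaks lay at 35154446 to 35157616, 35196082 to 35197353, 35215929 to 35217722, 35316985 to 35318508, 35347117 to 35349113 and 35355288 to 35356859, between 5.89% and 40.0% of the way along the gene. The PDGFRα peaks lay at 35365902 to 35367430, 35472903 to 35474374, 35481587 to 35483383 and 35666979 to 35669168, between 41.8% and 93.1% of the way. The change of list fell in a gap of 9.04 kb.

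Past the 3′ end of Slit3 the lists alternated, with a CD137 peak at 35723204 to 35724771, a PDGFRα peak at 35754738 to 35756057 and a CD137 peak at 35756751 to 35757809, all classed intergenic. The last of these peaks are 0.694 kb apart, the closest pair of opposite lists at any of the 10 genes. By class, the first 3 CD137 peaks and the 4 PDGFRα peaks inside the gene were intronic under ENSMUSG00000056427. The other 3 CD137 peaks inside carried other Ensembl IDs, ENSMUSG00000082309 (up5k) and ENSMUSG00000086311 (up5k and down5k). Counted by the Slit3 ID alone the numbers were 3 CD137 and 4 PDGFRα peaks, so whether Slit3 had more CD137 peaks depended on the assignment.

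Peaks at Slit3 were also wide, a property that the choice of genes did not use but that was singled out after the values were seen. Their median width was 1567 bp, and 9 of 13 (69.2%) were 1500 bp or wider, 6 of 8 in the CD137 list and 3 of 5 in the PDGFRα list. Over all listed peaks 20.1% were that wide, and inside protein-coding genes of 300 kb or more 18.5% of 2727 peaks were. The 13 peaks of Slit3 include those past its 3′ end, whereas the 2727 peaks all lie inside genes. Among 312 genes of 300 kb or more with at least 5 peaks, the median width was as large as that of Slit3 in 5, Slit3 included (1.60%). The intronic CD137 peak nearest the 5′ end of Slit3, 3170 bp, was the widest at any of the 10 genes, and 0.670% of CD137 peaks were as wide. At the other 9 genes 3 of 51 peaks (5.88%) reached 1500 bp.

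Slit2 (chromosome 5, 47981291 to 48307735, 326 kb), whose product is the best known ROBO ligand, had 6 CD137 and 2 PDGFRα peaks of 997 to 1287 bp. Before the gene lay CD137 peaks at 47938123 to 47939218 and 47956182 to 47957269, both classed intergenic. Inside it were CD137 peaks at 48003541 to 48004622 (up5k of ENSMUSG00000092559), 48013900 to 48014897 and 48136379 to 48137465 and a PDGFRα peak at 48048838 to 48050125, the last 3 intronic under ENSMUSG00000031558. Past its end lay a CD137 peak at 48330956 to 48332199 (down5k of ENSMUSG00000106604) and a PDGFRα peak at 48345012 to 48346199 (an intron of ENSMUSG00000029089). So 4 CD137 peaks ran from upstream of Slit2 into its first 10.1%, and 4 of the 8 peaks lay outside the gene. Among the 8002 widest CD137 peaks 1 remained at Slit2, beside both PDGFRα peaks, which turns the direction.

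**Figure D3:**
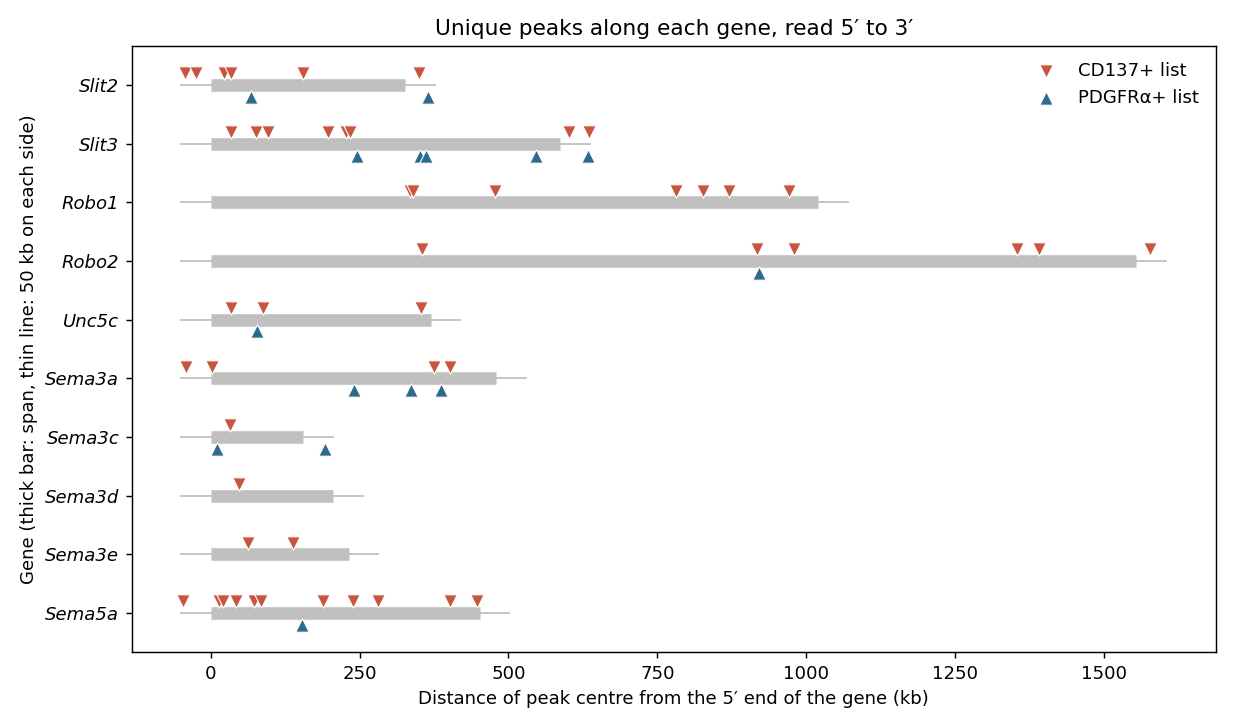
Position of each peak centre along its gene, as distance from the 5′ end in kb (horizontal axis), with 1 row per gene; thick bars are gene spans, thin lines the 50 kb on each side, and triangles above and below the bar are CD137 and PDGFRα peaks. In Slit3 the CD137 peaks inside the gene lie at 34.6 to 235 kb and the PDGFRα peaks at 245 to 547 kb, whereas in Sema5a 1 PDGFRα peak at 153 kb sits among CD137 peaks.

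Robo1 and Robo2 encode receptors of the SLIT ligands and lie on chromosome 16, with 844 kb between them. Together they had 13 CD137 peaks and 1 PDGFRα peak. Robo1 (72027518 to 73047491, 1020 kb) had 7 CD137 and 0 PDGFRα peaks, a CD137 share of 100% with an exact 95% binomial interval of 59.0 to 100%. That total equals the median of 7 peaks for genes over 600 kb, and 16.4% of those 152 genes had an excess of CD137 peaks as large or larger.

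The Robo1 peaks formed a front and a back group. In front, at 72361211 to 72362487, 72366302 to 72367703 and 72503658 to 72504856, were peaks that the deposited list classes as intergenic although they lie inside the RefSeq span. Behind, at 72807692 to 72808910, 72854007 to 72855106, 72896672 to 72898024 and 72998335 to 72999346, were intronic peaks under ENSMUSG00000022883. The front and back groups were 303 kb apart, and the start of Robo1 in the RefSeq promoter table (72663149) lay between them, 145 kb from the nearest peak. All 7 Robo1 peaks were of ordinary width, 1011 to 1401 bp.

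Robo2 (73891976 to 75447443, 1555 kb, on the minus strand) had 6 CD137 peaks and 1 PDGFRα peak. One CD137 peak lay past its 3′ end at 73869717 to 73870928 (intergenic), and CD137 peaks at 74054885 to 74056206 and 74092689 to 74094154 were intronic under ENSMUSG00000052516. The remaining 4 inside the span were classed intergenic, a CD137 peak at 74466819 to 74467846, the PDGFRα peak at 74526232 to 74527595, a CD137 peak of 1751 bp at 74529874 to 74531625 and a CD137 peak at 75092106 to 75093400. The PDGFRα peak and the 1751 bp CD137 peak were neighbours, 2.28 kb apart, and the next peak towards the 5′ end was 560.5 kb away. Under its Ensembl ID Robo2 kept 2 CD137 and 0 PDGFRα peaks. The stretch between Robo1 and Robo2 held 7 CD137 and 2 PDGFRα peaks, or 1.07 per 100 kb.

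The CD137 peak at 75092106 to 75093400 covered an internal start of Robo2. RefSeq lists promoter windows, 250 bases before to 50 after a start, for all 10 genes (12 windows, 3 of them for Robo2), and this was the 1 window of 12 (8.33%) that a listed peak overlapped, beside 4.30% of 32851 windows of all genes. The peak centre was 0.017 kb from the start at 75092770. The window is shown because here a peak and an annotated start coincide. It is chr16:75092721-75093020 on the minus strand of GRCm38.p6, from RefSeq, with motif matches in capitals, first TTGCNNAA (C/EBP factors) and then GGAATG (TEAD factors) read on the opposite strand.
Robo2: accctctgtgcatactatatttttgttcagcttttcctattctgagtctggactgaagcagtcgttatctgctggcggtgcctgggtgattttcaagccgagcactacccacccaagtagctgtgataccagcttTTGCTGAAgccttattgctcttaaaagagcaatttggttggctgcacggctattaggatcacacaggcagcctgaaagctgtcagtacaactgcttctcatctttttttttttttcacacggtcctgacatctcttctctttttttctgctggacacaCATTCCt

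Such matches are common. Of all promoter windows of that length 10.8% held the C/EBP motif and 14.7% the TEAD motif on either strand. The glucocorticoid receptor motif (AGAACA, 3 bases of any kind, TGTTC), found in 0.0487% of windows, the shorter site AGAACA (19.0%), which is a part of the full motif, the AP-1 motif TGANTCA (7.81%) and the EBF motif (TCCC, 2 bases of any kind, GGGA, 0.904%) had no match in the Robo2 window. In the other 11 windows none of the 6 motifs had a match. The covered window was 45.0% G and C, below the median of 61.0% over the 12 windows. The other 11 windows were 9.25 kb (Sema3c) to 145 kb (Robo1) from the nearest listed peak.

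Unc5c (chromosome 3, 141465564 to 141834924, 369 kb), the netrin receptor gene, had 3 CD137 peaks and 1 PDGFRα peak, all intronic under ENSMUSG00000059921. The CD137 peaks lay at 141498062 to 141499281, 141552646 to 141553603 and 141818941 to 141819877, and the PDGFRα peak at 141542608 to 141543668, 8.98 kb before the CD137 peak that follows it. Unc5c had fewer peaks than the median of its length band, 4 against 5. With windows of 100 kb, which reach further into the neighbouring Bmpr1b, the lists were equal at Unc5c.

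The 4 class 3 semaphorin genes, all on chromosome 5, had 8 CD137 and 5 PDGFRα peaks together, the most even group. Sema3a (13124822 to 13603485, 479 kb), which encodes a ligand that repels axons and nerve endings, had 4 and 3. Its CD137 peaks lay at 13083133 to 13084000 (down5k of ENSMUSG00000104577), 13124906 to 13127682 (up5k), 13499514 to 13500387 (intron) and 13526789 to 13527709 (exon). Its PDGFRα peaks, all intronic, lay at 13364940 to 13365831, 13459947 to 13461166 and 13510778 to 13511944. PDGFRα peaks were thus confined to the 3′ part of Sema3a, at 50.3% to 80.8% of its length, and the last 4 peaks alternated between the lists.

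The up5k peak of Sema3a lay at the very 5′ end of the RefSeq span, its centre 1.47 kb inside. The start of Sema3a in the RefSeq promoter table (13396784) was 270.5 kb away from that centre. The up5k peak was 2776 bp wide, a width that few peaks of its list reach (1.25%), while the other Sema3a peaks were 867 to 1219 bp. Without the windows, Sema3a had 3 peaks in each list, and with the 8002 widest CD137 peaks the direction turned, to a CD137 minus PDGFRα difference of -2.

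Sema3c (17574816 to 17730268, 155 kb) had 1 CD137 peak, at 17606091 to 17607014, and 2 PDGFRα peaks, at 17584116 to 17585173 and 17765785 to 17766547. The first PDGFRα peak and the CD137 peak were intronic and the last peak was intergenic, 35.9 kb past the gene, so inside Sema3c the lists were equal. With windows of 100 kb the direction turned, to 2 more CD137 than PDGFRα peaks. The first PDGFRα peak, 9.83 kb from the 5′ end, was nearer to the gene start than any other PDGFRα peak at the 10 genes. Sema3d (12383161 to 12588953, 206 kb) had 1 CD137 peak, at 12430560 to 12431631 in an intron. Sema3e (14025276 to 14256689, 231 kb) had 2, at 14087470 to 14088711 in an intron and at 14162080 to 14163486 in an exon. Sema3d, Sema3a and Sema3e follow each other along 1874 kb, which held 10 CD137 and 3 PDGFRα peaks, and all 3 PDGFRα peaks were those in Sema3a.

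Sema5a (chromosome 15, 32244813 to 32696341, 452 kb) encodes a membrane-bound semaphorin that can attract or repel, and it had the largest excess of CD137 peaks among the 10 genes, 11 against 1. Upstream, at 32197906 to 32199327, lay an intergenic CD137 peak. A run of 5 intronic CD137 peaks followed within the first 18.8% of the gene, at 32257532 to 32258576, 32265292 to 32266230, 32285876 to 32287261, 32316716 to 32317847 and 32328865 to 32330851. Then came the single PDGFRα peak, intronic, at 32397506 to 32398430.

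Behind it Sema5a had 5 more CD137 peaks, intronic at 32432604 to 32434040, 32483519 to 32484857, 32524845 to 32526180 and 32646787 to 32647566 and exonic at 32690738 to 32691942. All 11 peaks inside Sema5a carried 1 ID, ENSMUSG00000022231. Among the 405 protein-coding genes of 300 to 600 kb, 0.494% had a CD137 excess as large, Sema5a included. Because the genes were chosen by these peaks, that percentage is a description. The excess of 10 peaks fell to 6 with the 8002 widest CD137 peaks, and to 6 with the wider part of each list. The PDGFRα peak was narrow, 924 bp, beside a median of 1335 bp and a range of 779 to 1986 bp for the CD137 peaks.

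Pooled over the 10 genes the CD137 share of peaks was 76.6% (exact 95% interval 64.3 to 86.3%, counting error only), beside 65.3% for peaks within 50 kb of protein-coding genes of 150 kb or more, 62.0% for any protein-coding gene and 64.4% for all listed peaks. By gene length the share was 62.18% from 100 to 300 kb, 65.93% from 300 to 600 kb and 69.94% above 600 kb. In these length bands a peak near more than 1 gene counts at each of them. For the 10 genes the share was 73.1% without Sema5a and 80.4% without Slit3, the lowest and highest when a gene was left out. With the 8002 widest CD137 peaks, so that the lists were equally long, it was 65.9% (29 CD137 and 15 PDGFRα peaks), the lowest in any setting run. All listed peaks then divide evenly, 8002 per list, so the background shares above do not apply to that value. By role it was 92.9% at the ROBO genes, 91.7% at Sema5a, 66.7% at the SLIT genes and 61.5% at the class 3 semaphorin genes, and 3 of 4 peaks at Unc5c were CD137 peaks. With 1 library per list these shares have no replicate check, and they rest on the choice of genes.

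PDGFRα peaks at these genes were intronic or intergenic. Of 15, 12 (80.0%, interval 51.9 to 95.7%) were in introns, 3 were intergenic and 0 were classed exon, up5k or down5k, which allows a share of up to 21.8%. Of the 49 CD137 peaks 27 (55.1%, 40.2 to 69.3%) were intronic, 12 intergenic and 10 (20.4%, 10.2 to 34.3%) exon, up5k or down5k. At genes of 150 kb or more the last share was 20.1% for PDGFRα peaks and 20.6% for CD137 peaks. The absence of PDGFRα peaks from these classes is therefore within what 15 peaks allow. Of the 53 peaks inside the genes 7 were classed intergenic, 3 in Robo1 and 4 in Robo2.

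The lists had the same median width at these genes. It was 1219 bp for both the 49 CD137 peaks (interquartile range 1058 to 1406 bp) and the 15 PDGFRα peaks (1058 to 1417 bp), beside 1221 and 1237 bp over the whole lists. Only Slit3 and Sema3a had peaks of 2000 bp or more.

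**Figure D4:**
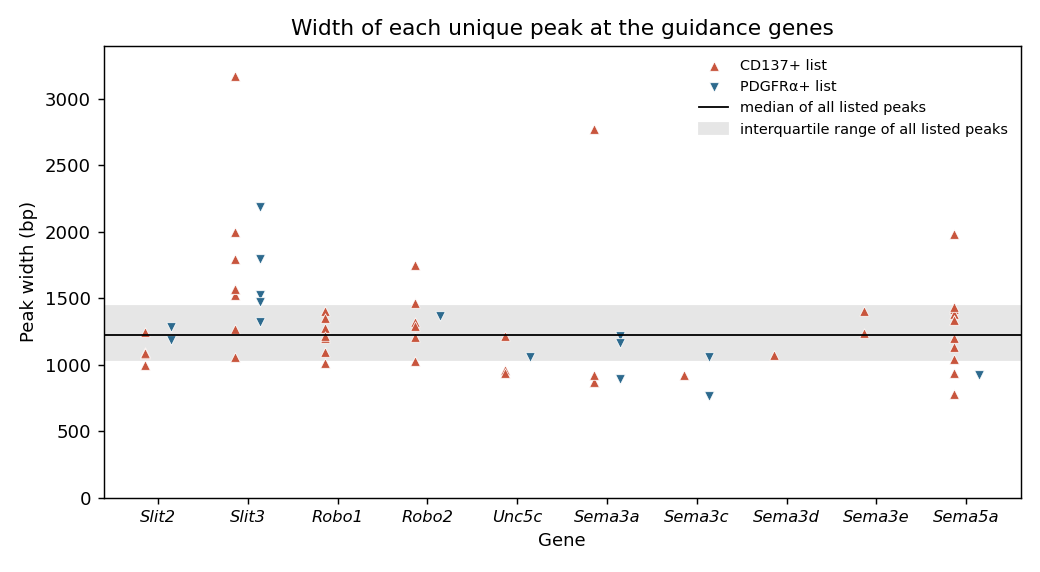
Width in bp (vertical axis) of each of the 64 peaks by gene, for the CD137+ and PDGFRα+ lists; the line is the median of all listed peaks, 1226 bp, and the band their interquartile range, 1035 to 1439 bp. Most Slit3 peaks lie above the band, up to 3170 bp, and 1 CD137 peak at Sema3a reaches 2776 bp, whereas Slit2 and Sema3c peaks lie in or below the band.

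Along the genes, 25 of 41 CD137 peaks inside the spans (61.0%, 44.5 to 75.8%) and 5 of 12 PDGFRα peaks (41.7%, 15.2 to 72.3%) lay in the first 50% of the span from the 5′ end. Without Slit3 the values were 19 of 35 (54.3%) and 4 of 8. In 1108 protein-coding genes of 150 kb or more with a known strand they were 51.8% and 47.8%, inside the intervals of both. By this share, which does not measure the order of peaks, no separation of the lists like that along Slit3 was detectable over the other 9 genes at this number of peaks.

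The limit of 50 kb left out peaks of both lists. Nearest inside it was a CD137 peak 48.8 kb past Slit3, and nearest outside it a CD137 peak 50.7 kb before Slit2. Counting that one, 6 peaks lay between 50 and 70 kb, all from the CD137 list, at Slit2, Sema3c, Sema3e (2), Robo1 and Robo2. Windows of 100 kb held 58 CD137 and 17 PDGFRα peaks, beside 49 and 15 with windows of 50 kb.

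Other genes of the guidance pathways were mostly shorter and had the lists more evenly. Of 50, 11 had CD137 peaks only, 4 PDGFRα peaks only, 30 both and 5 neither. Over all 21887 protein-coding genes, with a median length of 17.2 kb, these numbers were 5401, 3416, 5425 and 7645. The windows of the 50 genes held 85 CD137 and 57 PDGFRα peaks (59.9% CD137, beside 62.0% within 50 kb of any protein-coding gene). Their median length was 49.8 kb, and their median density was 1.32 peaks per 100 kb. The other SLIT and ROBO genes had 4 CD137 and 0 PDGFRα peaks, 3 of them at Slit1 and 1 shared by the neighbours Robo3 and Robo4, so 0 PDGFRα peaks were listed at any SLIT or ROBO gene beyond those of Slit2, Slit3 and Robo2.

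Among receptors and ligands, plexin and neuropilin genes had 14 and 13 peaks, other semaphorin genes 22 and 17, and netrins with their receptors 27 and 13. The plexin genes differed in direction: Plxna2 had 3 and 3, Plxna4 had 4 and 0, and Plxnc1 had 1 and 3. Of the semaphorins Sema6d (578 kb) had 6 and 3, Sema5b 2 and 2, and Sema4a 3 and 1. In the netrin group Dscam had 6 and 1, the netrin receptor gene Dcc (1098 kb) had 4 and 1, Ntn4 had 4 and 1, and Draxin, a secreted netrin antagonist, had 1 and 3.

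The srGAP genes, whose products pass the signal from ROBO receptors to small GTPases, had 13 CD137 and 9 PDGFRα peaks. Srgap2 (242 kb) had 7 and 6, which gave it 3.80 peaks per 100 kb, more than any of the 10 genes. Srgap1 had 5 and 0, and Srgap3 had 1 and 3, the one of these with more PDGFRα peaks.

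Genes outside these pathways had like patterns. The counts of Sema5a, 11 and 1, recurred at 2 other genes, of which Dgki (464 kb) is nearer in length, and those of Slit2, 6 and 2, at 20 genes, of which Mid1 (306 kb) is nearest. No other gene had the 8 and 5 of Slit3, and the nearest was Cdk14 (577 kb) with 8 and 4. Likeness here is the summed difference of both peak numbers over 2 libraries, with gene length to settle ties.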

How the data were processed

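The analysis used 2 peak lists, 1 per library. Per the file headers each deposited row is a position with a gene ID and a place class, and the authors gave no height or count. The submitters' processing notes name CASAVA 1.8 and build mm10 but not what either was used for. Aligner, peak caller, calling threshold, handling of transposase cut sites and the rule for unique peaks: none is given in the sources used here, and a deeper library or looser threshold would lengthen a list. Whether starts count from 0 or 1 is also not given. Gene spans, symbols and promoter windows came from RefSeq tables of GRCm38.p6 (mm10), matched by exact symbol (10 of 10 genes, and 50 of 50 other guidance genes). Strand came from the promoter table.

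A peak centre is the midpoint of start and end, rounded down, and width is end minus start. Shares carry exact Clopper-Pearson 95% intervals for counting error only. With 1 library per group no test between the groups was made. Density is peaks per 100 kb of span plus both windows. Each gene was linked to the Ensembl ID that most of its inside peaks carry. The genes and lists were chosen with earlier results of these data known. Named were all 10 genes, other guidance genes with 4 or more peaks (12 at most, ties in list order), the genes of the sort markers, and the nearest gene by peak numbers for the 3 genes with most peaks. Slit1, Robo3, Robo4, Srgap3, Wt1, Tubb3, Pparg, Ebf2 and Zfp423 fall outside this rule and were named after their values were seen. In simulated data the steps recovered all 20 planted gene counts and 300 of 300 planted motifs. Software was Python 3.11.15 (numpy 2.4.6, pandas 2.3.3, with scipy 1.17.1 for intervals and matplotlib 3.10.9 for plots). Motifs were planned for peak sequences too, but no genome was used here.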

Additional observations from a re-analysis of the deposited data

How the results depend on the processing

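No paired analysis was possible because each group has 1 library, and for that reason none was left out. The CD137 share of the guidance genes' peaks stayed inside its main interval in every setting run. This held for planned settings and for those added after the data were seen (without intergenic peaks, and as a median over genes). Most settings reuse the same peaks, and the interval covers counting error only, so staying inside it is no independent check. The lowest value, 65.9%, came with the 8002 widest CD137 peaks, where the lists are equally long and the background shares differ. Counts moved with the selection of peaks. With the wider part of each list there were 24 CD137 and 7 PDGFRα peaks, with the 8002 widest CD137 peaks 29 CD137 peaks, and by Ensembl ID 31. Intergenic peaks made up 13.2% within 0 kb or 5 kb of the genes. By position, 17.2% of centres lay outside every RefSeq coding span, against 23.4% classed intergenic. The 82.8% of centres inside such a span took in peaks of every class, so the 60.9% classed intronic is not a like measure. The median gene was denser than 64.4% of all genes but 50.8% of those in the same length bands. Of the 50 other guidance genes 28 had a peak inside the span, against 45 within 50 kb. Within 50 kb 7645 of all 21887 protein-coding genes had none, and no share of all genes with a peak inside the span is given here. The sign of CD137 minus PDGFRα peaks turned at Slit2 (-1) and Sema3a (-2) with the widest CD137 peaks, at Slit3 (-1) by Ensembl ID and at Sema3c (2) with a 100 kb window. Over 90 comparisons of a gene and a setting it turned in 4, the lists became equal in 14, and the difference moved by more than 1.5 times in a further 14. The cause was not tested beyond what each setting leaves out. Unknown depth limits every statement on a gene without a listed peak.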
